A study of Mus musculus with 10 samples.

Results

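Interleukins and their receptors outside the type 2 response were examined in lung RNA-seq profiles of 10 mice. The members were all genes whose symbol begins with Il and a digit, except the 8 type 2 genes Il4, Il5, Il13, Il33, Il1rl1, Il4ra, Il13ra1 and Il13ra2. They comprised 75 of the 24394 gene symbols of the expression table, held in 108 transcript rows that were added up per symbol. By role, 33 were ligands, 36 were receptor chains, 4 were antagonists or binding proteins (Il1rn, Il1f5, Il18bp and Il22ra2) and 2 were neither (the enzyme Il4i1 and the noncoding transcript Il1bos). All animals were young adult female BALB/c mice of the same age. Saline mice (n = 3) served as controls. OVA mice (n = 3) were sensitised by intraperitoneal ovalbumin with alum and challenged intranasally with ovalbumin, an egg protein that provokes asthma-like airway inflammation. Herb mice (n = 4) went through the same ovalbumin protocol and were given an ethanol extract of Descurainia sophia seeds by mouth, called DSE in the study. Whole lung was profiled, so fewer cells of a type and less RNA per cell cannot be told apart.

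Interleukins are secreted proteins through which leukocytes, epithelial cells and stromal cells signal to one another. Most act at very low abundance, and their transcripts are often confined to few cells of a tissue, whereas receptor chains are made continuously by many cell types. Receptors are assembled from a ligand-binding chain and a shared signalling chain: Il6st (gp130) serves the IL-6 family, Il2rg the IL-2 family, Il1rap the IL-1 family and Csf2rb the IL-3 and IL-5 receptors. In allergic lung, IL-17, IL-25, IL-1 and IL-10 family signals are known to act beside the type 2 cytokines.

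Levels were given in FPKM (fragments per transcript length and library size, a level per length), and each library was scaled to a common 75th percentile of its gene sums. This scaling matters here, because the sum of the deposited FPKM over protein-coding rows was 133354 to 147533 in Saline, 39136 to 52995 in OVA and 74117 to 98580 in Herb libraries, with no overlap between groups. The median of all gene sums in OVA vs. Saline was 0.10 on the log2 scale after scaling and -0.75 in the values as deposited, so every direction below is relative to this choice. Scaled to a common sum of protein-coding rows instead, it was 0.39. The estimated depth was 14700000 to 29300000 mapped fragments per library. Of the 75 members, 26 had a mean of at least 1 scaled FPKM and were tested, 29 were low (a group mean of at least 0.1 FPKM), 10 were too low to judge (every group mean under 0.1 FPKM) and 10 were listed at 0 in all libraries. A value of 0 is not proof of absence, since Gapdh, used by every cell, was listed at 0 in 9 of 10 libraries.

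The division between ligands and receptors was steep. Of 33 ligands, 5 were tested (Il1a, Il1b, Il1f9, Il15 and Il34), 11 were low, 7 were too low to judge and 10 were listed at 0 in every library. Of 36 receptor chains, 20 were tested, 14 were low, 2 were too low to judge (Il1rapl2 and Il20ra) and none was listed at 0 in every library. The 10 ligands listed at 0 throughout were Il3, Il9, Il17a, Il17b, Il20, Il23a, Il25, Il1f6, Il1f8 and Il1f10. They include the T cell cytokine IL-17A, the epithelial alarmin IL-25 and the mast cell growth factor IL-9. The 7 ligands too low to judge were Il2, Il12b, Il17f, Il19, Il22, Il24 and Il31. No direction is given for any of these 17 ligands.

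Genes of these families lie in groups on the mouse genome (GRCm38.p6, positions from RefSeq). The receptor genes Il1r2, Il1r1, Il1rl2, Il18r1 and Il18rap, 5 members, lie in 1 stretch at chr1:40084692-40551707. The ligand and antagonist genes Il1f8, Il1f9, Il1f6, Il1f5, Il1f10 and Il1rn lie at chr2:24153172-24351491, and Il1a, Il1b and Il1bos at chr2:129299609-129375733. Il17re and Il17rc are direct neighbours at chr6:113458699-113483163. The promoters of 3 genes are shown because they belong to receptor genes with opposite differences in OVA vs. Saline: Il1rl2 and Il18rap, from the same stretch of chromosome 1 and higher in OVA, and Il6st, lower in OVA. Each is the 250 bases before the start of the gene in the RefSeq promoter table (GRCm38.p6, plus strand), and none overlaps an exon of the GENCODE annotation. Capitals mark a TATA box (TATAAA) or a GC box (GGGCGG), read on either strand.
Il1rl2, chr1:40324339-40324588: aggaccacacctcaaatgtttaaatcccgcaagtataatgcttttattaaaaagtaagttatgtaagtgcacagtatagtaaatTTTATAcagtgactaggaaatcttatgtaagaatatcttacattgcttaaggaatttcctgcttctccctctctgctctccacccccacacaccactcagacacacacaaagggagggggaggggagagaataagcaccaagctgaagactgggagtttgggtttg
Il18rap, chr1:40515112-40515361: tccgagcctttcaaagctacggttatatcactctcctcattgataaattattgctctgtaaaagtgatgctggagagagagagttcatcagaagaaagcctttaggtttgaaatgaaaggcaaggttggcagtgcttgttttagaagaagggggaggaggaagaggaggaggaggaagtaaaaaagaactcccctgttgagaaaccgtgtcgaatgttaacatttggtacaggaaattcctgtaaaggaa
Il6st, chr13:112463820-112464069: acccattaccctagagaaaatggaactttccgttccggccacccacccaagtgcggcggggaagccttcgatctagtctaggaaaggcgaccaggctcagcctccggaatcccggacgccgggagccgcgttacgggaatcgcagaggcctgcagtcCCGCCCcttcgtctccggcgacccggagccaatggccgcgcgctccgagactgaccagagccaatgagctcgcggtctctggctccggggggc
The Il1rl2 window held 1 TATA box and the Il6st window 1 GC box. The Il18rap window held neither. Their G and C content was 41.2% for Il1rl2, 42.0% for Il18rap and 66.0% for Il6st. Of 32851 promoter windows of this length, 12.4% held a TATA box and 32.7% a GC box. A gamma-activated site (TTCNNNGAA, the letters bound by STAT factors) was found in 7.02% of all windows and in 3 of 27 windows of tested members, those of Il18r1, Il1f9 and Il7r. An ETS site (CCGGAAGT) was found in 2.88% of all windows and in none of the 27. These matches are letters only, and no binding was measured.

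OVA vs. Saline addresses which interleukin transcripts differ in the asthma model. In the limma test across 11349 gene sums, 12 of the 26 tested members were called (adjusted p under 0.05), 9 higher and 3 lower in OVA, beside 41.8% of all gene sums called. The share called higher was 25.0% of all gene sums and the share called lower 16.9%. All 12 called members were receptor chains, out of 20 tested. None of the 5 tested ligands and not the tested antagonist Il1rn was called. The median log2 difference was 0.46 over the 26 members and 0.70 over the 20 receptors, against 0.10 over all gene sums. Differences depended on level across all genes, with a median of 0.29 for gene sums of 1 to 2 FPKM, 0.20 for 2 to 5 FPKM, -0.06 for 5 to 10 FPKM and -0.87 for 20 to 50 FPKM. The groups did not overlap in 16 of 26 members, 11 of them higher in OVA, beside 54.9% of all gene sums. Fold changes on log2(FPKM + 1) understate the change of low genes.

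**Figure D1:**
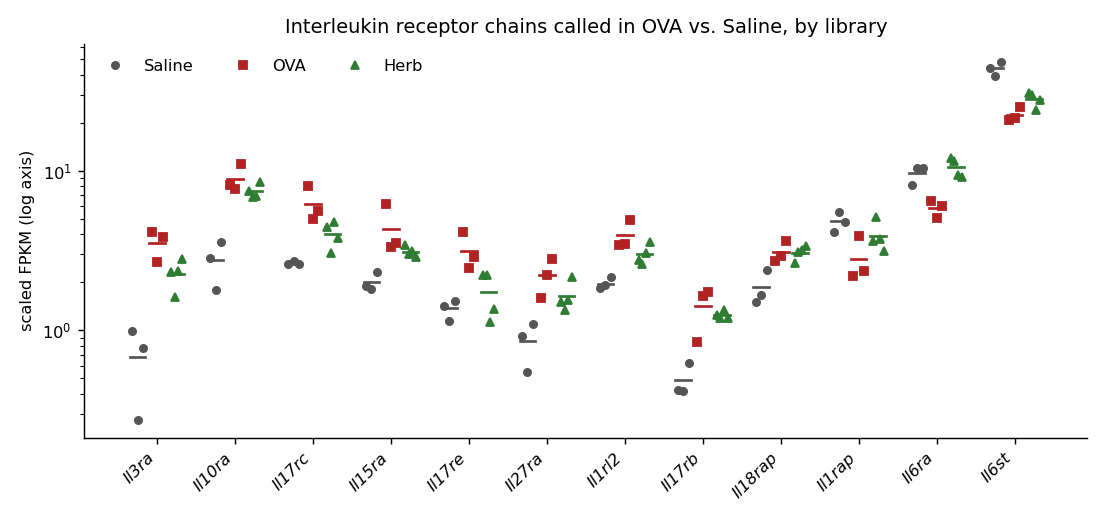
Scaled FPKM on a log axis of the 12 receptor chains called in OVA vs. Saline, with 1 point per library and a short line at each group mean (Saline n = 3, OVA n = 3, Herb n = 4). Genes run from the largest positive to the largest negative log2 difference, and for all 12 the OVA points lie wholly above or wholly below the Saline points.

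The largest differences were in the receptors of IL-3 and IL-10. Il3ra, the chain that binds IL-3, stood at 0.995, 0.275 and 0.777 FPKM in Saline, 4.10, 2.69 and 3.82 in OVA and 2.31, 1.61, 2.36 and 2.78 in Herb. Every OVA and Herb library was above every Saline library. The log2 difference in OVA vs. Saline was 1.44 ± 0.21 (SE; adjusted p = 0.00153), and it was called in all 18 alternative settings, with values from 0.73 as deposited to 2.33. Its ligand Il3 was listed at 0 in all libraries. Il10ra, the ligand-binding chain for the anti-inflammatory cytokine IL-10, was 2.84, 1.78 and 3.59 FPKM in Saline, 8.12, 7.71 and 10.98 in OVA and 7.46, 6.88, 6.95 and 8.51 in Herb. Again no OVA or Herb library fell within the Saline range. The log2 difference was 1.43 ± 0.20 (adjusted p = 0.00129), and as deposited it was 0.47 (adjusted p = 0.0921), no longer called. Il10 itself was low, at 0.0359, 0 and 0 FPKM in Saline, 0.0947, 0.121 and 0.568 in OVA and 0.0805 to 0.365 in Herb. By the estimated depth it was at or under 3 fragments in 7 of 10 libraries, so no direction is given.

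Receptors of the IL-17 family were higher in OVA for 3 of the 4 members tested. Il17rc, a signalling partner in the receptor for IL-17A and IL-17F, was 2.59, 2.73 and 2.62 FPKM in Saline, 8.02, 4.96 and 5.57 in OVA and 4.41, 3.06, 4.79 and 3.76 in Herb. Its log2 difference in OVA vs. Saline was 0.96 ± 0.18 (adjusted p = 0.00360), and the Saline libraries lay close together. Its neighbour Il17re, the receptor chain for IL-17C, was 1.43, 1.15 and 1.54 FPKM in Saline and 4.11, 2.46 and 2.88 in OVA, with a log2 difference of 0.79 ± 0.21 (adjusted p = 0.0150). The call on Il17re was lost without Saline replicate 2 (0.72, adjusted p = 0.0534), under quantile normalization (0.57, adjusted p = 0.0801) and with its highest row in place of the sum (0.64, adjusted p = 0.288). As deposited both were near 0, at 0.03 for Il17rc and 0.01 for Il17re. Il17rb, which binds IL-25, was 0.420, 0.415 and 0.625 FPKM in Saline, 0.844, 1.65 and 1.74 in OVA and 1.19 to 1.34 in Herb. Its log2 difference was 0.68 ± 0.17 (adjusted p = 0.0118), and it was called in all 16 settings in which it was tested. Its mean was 0.487 FPKM in Saline, 1.41 in OVA and 1.24 in Herb. It thus passed the limit of 1 FPKM only through the groups where it was high. With no filter on low values it was called at the same difference (limma, adjusted p = 0.0151). As deposited its mean was under 1 FPKM and it was not tested. The fourth, Il17rd, was not called, at 4.08, 3.01 and 4.36 FPKM in Saline and 2.66, 2.84 and 1.20 in OVA (log2 difference -0.61 ± 0.22, adjusted p = 0.0518). Il17ra, another receptor chain of the family, was low, at 0.0978, 0 and 0 FPKM in Saline, 1.29, 0 and 0.0942 in OVA and 0 to 0.141 in Herb. The unnamed row directly after Il17ra was at 1.17 to 7.10 FPKM, so the level of this chain is uncertain. Of the ligands of the family, Il17a, Il17b and Il25 were listed at 0 throughout and Il17f was too low to judge, while Il17c and Il17d were low.

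Receptors of the IL-1 family went both ways. Il1rl2, the receptor chain for the IL-36 cytokines, was 1.83, 1.91 and 2.15 FPKM in Saline and 3.41, 3.49 and 4.95 in OVA, a log2 difference of 0.73 ± 0.14 (adjusted p = 0.00437) that became -0.12 as deposited. Il18rap, the accessory chain of the IL-18 receptor on T and NK cells, was 1.51, 1.67 and 2.397 FPKM in Saline and 2.71, 2.94 and 3.61 in OVA. Its log2 difference was 0.52 ± 0.14 (adjusted p = 0.0186), and it became -0.28 as deposited. The call on Il18rap was lost without Saline replicate 1 (0.43, adjusted p = 0.0666), without Saline replicate 2 (0.48, adjusted p = 0.0621), without OVA replicate 3 (0.43, adjusted p = 0.0564) and under quantile normalization (0.32, adjusted p = 0.0833). Both genes stand in the chromosome 1 stretch whose promoters are printed above. Il18r1, the ligand-binding partner of Il18rap in the same stretch, was 8.17, 3.47 and 3.78 FPKM in Saline and 5.79 to 7.14 in OVA, and its groups overlapped (adjusted p = 0.361). Il1rap, the shared signalling chain for IL-1, IL-33 and IL-36, was lower, at 4.16, 5.53 and 4.77 FPKM in Saline against 2.18, 3.92 and 2.34 in OVA (log2 difference -0.63 ± 0.20, adjusted p = 0.0331). Its direction was negative in every setting, with values from -1.49 to -0.33. The call was lost without Saline replicate 2 (-0.54, adjusted p = 0.106), Saline replicate 3 (-0.63, adjusted p = 0.0757), OVA replicate 1 (-0.51, adjusted p = 0.0991) or OVA replicate 3 (-0.55, adjusted p = 0.0915), with no filter on low values (-0.63, adjusted p = 0.0504) and with libraries scaled to the sum of protein-coding rows (-0.33, adjusted p = 0.197).

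The 2 chains of the IL-6 receptor were both lower in OVA. Il6st, the gp130 chain shared by the whole IL-6 family, had the highest level of all members, at 44.3, 39.5 and 48.1 FPKM in Saline, 20.9, 21.4 and 25.0 in OVA and 30.8, 29.7, 24.2 and 27.9 in Herb. The log2 difference in OVA vs. Saline was -0.94 ± 0.13 (adjusted p = 0.00139), close to the median of -0.87 of all gene sums between 20 and 50 FPKM, of which 57.1% were called lower. It was negative in every setting but lost its call under quantile normalization (-0.28, adjusted p = 0.141). Il6ra, the chain that binds IL-6, was 8.20, 10.4 and 10.4 FPKM in Saline and 6.47, 5.05 and 6.002 in OVA. Its log2 difference was -0.64 ± 0.15 (adjusted p = 0.00899), where gene sums of 5 to 10 FPKM had a median of -0.06, and it was negative in every setting, reaching -0.30 (adjusted p = 0.144) with libraries scaled to the sum of protein-coding rows. Il6 was low, at 0.0320, 0.0936 and 0 FPKM in Saline and 0.109, 0.1497 and 0.152 in OVA. By the estimated depth it was at or under 3 fragments in 8 of 10 libraries, so no direction is given.

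Il15ra and Il27ra completed the receptors called higher. Il15ra, which presents IL-15 to T and NK cells, was 1.91, 1.80 and 2.33 FPKM in Saline and 6.21, 3.31 and 3.51 in OVA (log2 difference 0.79 ± 0.19, adjusted p = 0.00993). It depended on how its 9 transcript rows were combined: the row with the highest mean alone gave -0.07, and the values as deposited also gave -0.07. In OVA replicate 1, 5.13 of the 6.21 FPKM stood on a noncoding row listed at 0 in the other libraries. Il27ra, a receptor of IL-27, was 0.920, 0.552 and 1.09 FPKM in Saline and 1.59, 2.21 and 2.81 in OVA, with a log2 difference of 0.78 ± 0.19 (adjusted p = 0.0100) and 0.12 (adjusted p = 0.604) as deposited.

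**Figure D2:**
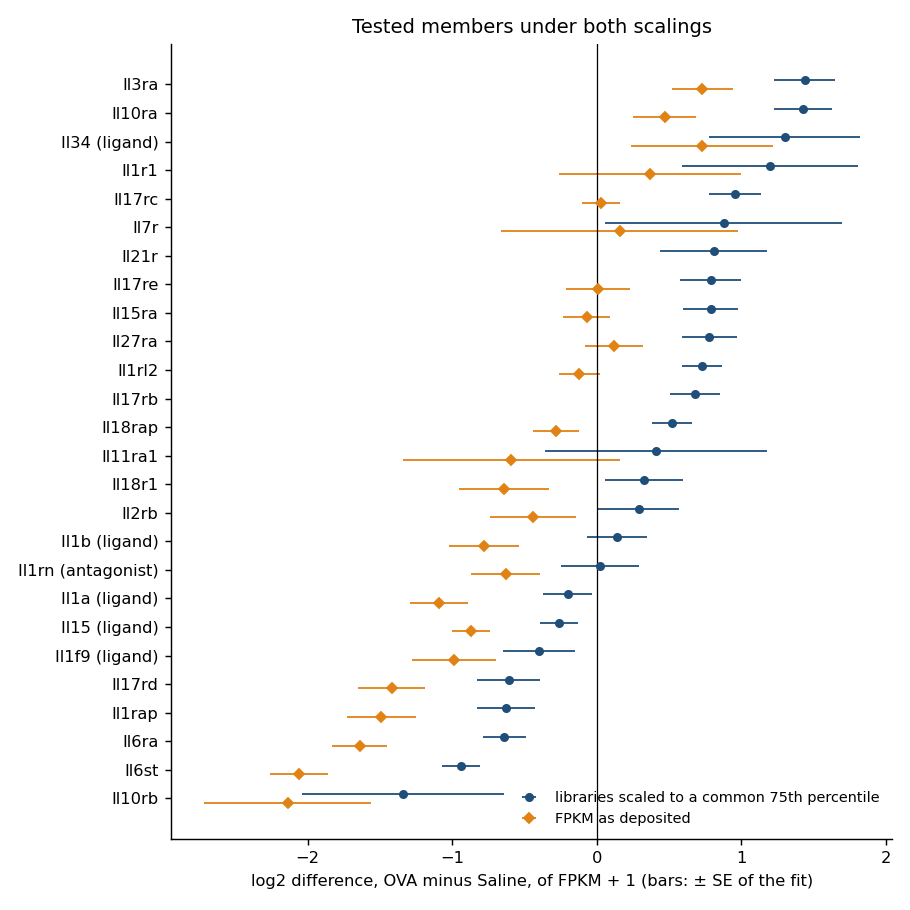
Log2 difference in OVA vs. Saline (FPKM + 1, bars ± SE of the limma fit) of the 26 tested members, from libraries scaled to a common 75th percentile (circles) and from FPKM as deposited (diamonds). The diamonds lie to the left of the circles for every member that has both, Il3ra stays positive (1.44 and 0.73), and Il17rb and Il21r have no diamond because their mean as deposited was under 1 FPKM.

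The choice of scaling moved these members as a group. As deposited, 13 of 27 members were called in OVA vs. Saline, Il3ra higher (0.73, adjusted p = 0.0120) and 12 lower, beside 61.2% of all gene sums, of which 368 were higher and 6485 lower. After scaling, 2833 gene sums were higher and 1913 lower, and with a common sum of protein-coding rows 4520 were higher and 984 lower. The 12 called lower as deposited included the ligands Il1a (-1.09), Il1b (-0.78), Il1f9 (-0.99), Il15 (-0.87) and Il18 and the antagonist Il1rn (-0.63). After scaling none of these was called in the fit of members above 1 FPKM, in which Il18 was not tested. Il6st, Il6ra and Il1rap were called lower both ways.

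The tested ligands and the antagonist Il1rn showed no call in any comparison after scaling. Il1b, the IL-1 beta precursor made by activated macrophages and neutrophils, was 3.52, 3.23 and 5.80 FPKM in Saline, 5.24, 4.60 and 4.01 in OVA and 7.15, 5.65, 4.33 and 5.77 in Herb. Il1a, the IL-1 alpha alarmin, was 4.05 to 4.33 FPKM in Saline, 2.95 to 4.23 in OVA and 2.28 to 3.87 in Herb. The groups overlapped in OVA vs. Saline for both (log2 differences 0.14 ± 0.21 and -0.20 ± 0.17, adjusted p = 0.611 and 0.366). Il1rn, which blocks the IL-1 receptor, was 1.32, 1.71 and 1.46 FPKM in Saline, 0.611, 1.93 and 2.41 in OVA and 2.21, 2.09, 2.34 and 3.44 in Herb. All Herb libraries were above all Saline libraries for Il1rn, but the difference of 0.48 ± 0.25 was not called (adjusted p = 0.210). Il1f9 (IL-36 gamma, an epithelial cytokine) was 0.832, 1.97 and 2.15 FPKM in Saline, 1.15, 1.19 and 0.576 in OVA and 2.39, 3.39, 1.79 and 1.97 in Herb. Il15, which sustains NK and memory T cells, was 1.37 to 1.61 FPKM in Saline and 1.26, 1.26 and 0.781 in OVA, not overlapping and not called (log2 difference -0.26 ± 0.13, adjusted p = 0.139). It was called lower under quantile normalization (-0.39, adjusted p = 0.0265). Il34, a ligand of the macrophage growth factor receptor, spread widely, at 1.60, 0.121 and 0.0470 FPKM in Saline, 5.28, 3.44 and 0.642 in OVA and 3.58, 1.56, 3.01 and 2.999 in Herb. Its difference of 1.3 ± 0.52 in OVA vs. Saline was not called (adjusted p = 0.0711), but was called without OVA replicate 3 (1.86, adjusted p = 0.0120), without Saline replicate 1 (1.72, adjusted p = 0.0359) and with a common sum of protein-coding rows (1.51, adjusted p = 0.0484). The unnamed row directly before Il34 was at 0.815, 1.58 and 2.36 FPKM in Saline and 0.415, 0.541 and 2.72 in OVA, lowest where Il34 was highest in both groups. In Herb this row was at 0.314, 1.52, 0.808 and 0.286 FPKM, lowest in replicate 4, while Il34 was highest in replicate 1.

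**Figure D3:**
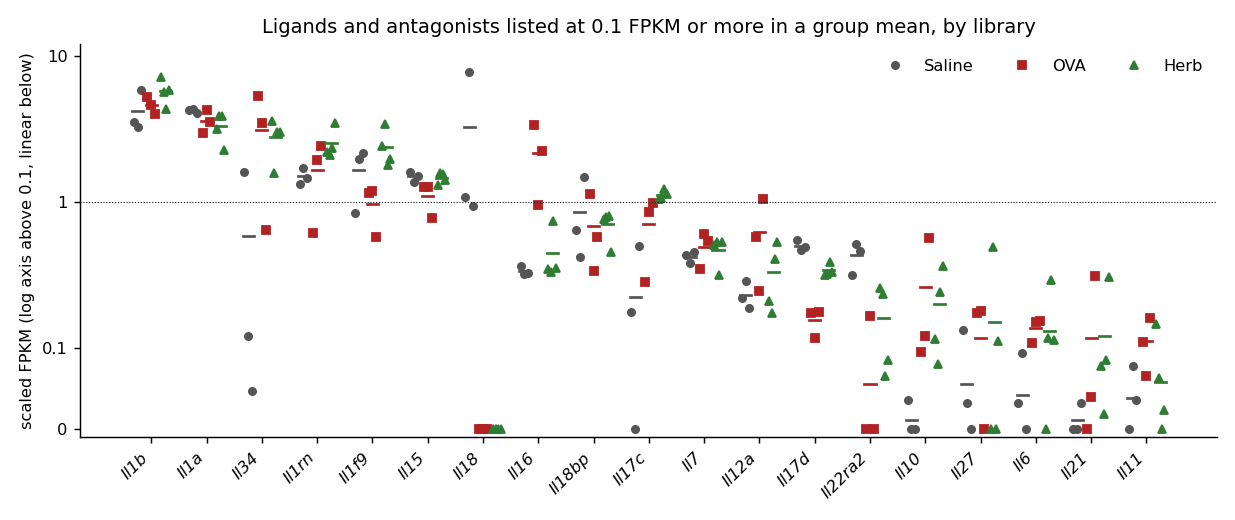
Scaled FPKM by library of the ligands and antagonists with a group mean of at least 0.1 FPKM, on an axis that is logarithmic above 0.1 and linear below (points are libraries, short lines group means, the dotted line is 1 FPKM). Il1b lies between 3.23 and 7.15 FPKM with the groups mixed, Il16 is highest in OVA, and Il18 sits at 0 for each of the 7 OVA or Herb libraries.

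Members under 1 FPKM were tested in a second fit, where the limit was a mean of 0.1 FPKM and the pseudocount 0.1, and which took in 52 members. It called 20 of them in OVA vs. Saline, beside 35.6% of 16137 gene sums. The 12 receptors above were again among them, and 8 low members were added. Il16, a chemoattractant of CD4+ cells, was 0.362, 0.322 and 0.328 FPKM in Saline, 3.33, 0.946 and 2.22 in OVA and 0.349, 0.330, 0.743 and 0.354 in Herb. All OVA libraries were above all Saline and Herb libraries, with a log2 difference of 2.21 ± 0.44 (adjusted p = 0.00562) against Saline and -1.96 ± 0.41 (adjusted p = 0.0924, not called) in Herb vs. OVA. The unnamed row directly before Il16 went the other way, at 3.78, 3.18 and 4.79 FPKM in Saline, 0.298, 3.41 and 0.959 in OVA and 2.97 to 4.37 in Herb. It was lowest in the same 2 OVA libraries in which Il16 was highest, and whether the rows share reads was not tested. Il17d, an IL-17 family ligand, was 0.547, 0.466 and 0.489 FPKM in Saline, 0.173, 0.118 and 0.175 in OVA and 0.318, 0.321, 0.388 and 0.330 in Herb. The 3 groups were fully apart, and the log2 difference of -1.24 ± 0.21 in OVA vs. Saline was called (adjusted p = 0.00308), whereas 0.79 ± 0.19 in Herb vs. OVA was not (adjusted p = 0.103). Il12rb1, the receptor chain shared by IL-12 and IL-23, was 0.104, 0.0470 and 0.0365 FPKM in Saline and 0.447, 0.366 and 0.937 in OVA (log2 difference 2.01 ± 0.47, adjusted p = 0.0119). Il9r (1.83 ± 0.63, adjusted p = 0.0494, just under the threshold) and Il1rapl1 (1.33 ± 0.29, adjusted p = 0.00805) were also called higher. So was Il31ra, at 0, 0 and 0.0391 FPKM in Saline and 0.211, 0.327 and 1.26 in OVA, for which no fold is given because it entered the fit only through the OVA libraries. The unnamed row directly after Il31ra in the table was at 29.8 to 34.2 FPKM in Saline, 503 to 707 in OVA and 71.7 to 271 in Herb, and whether it belongs to that gene was not tested. Il22ra2, a soluble decoy of IL-22, was 0.317, 0.512 and 0.461 FPKM in Saline, 0, 0.166 and 0 in OVA and 0.0654 to 0.259 in Herb. It was called lower (adjusted p = 0.0140), with no fold given since 2 of the 3 OVA libraries listed it at 0.

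Il18, a cytokine that epithelial cells and macrophages release through caspase-1, had levels of 1.08, 7.70 and 0.940 FPKM in the Saline libraries, while each OVA or Herb library listed it at 0. It was called lower in that fit, but no fold is given against groups listed at 0. Il18 entered that fit, and the fit of the values as deposited, only through the Saline libraries, so its calls are given for completeness only. The unnamed assembled transcript row directly after Il18 in the table was at 1.38 to 2.65 FPKM in Saline, 0.680 to 2.59 in OVA and 1.05 to 2.85 in Herb, and whether it took reads of Il18 was not tested. Such an unnamed row stood directly beside 56 members, 25 of the 26 tested ones among them. Among the other low members, Il5ra, the ligand-binding chain for IL-5 on eosinophils, was 0.0695, 0.107 and 0.0873 FPKM in Saline, 0.184, 0.204 and 0.265 in OVA and 0.478, 0.146, 0.255 and 0.490 in Herb. All OVA and Herb values of Il5ra were above all Saline values, and no comparison was called (adjusted p = 0.132 in OVA vs. Saline and 0.0542 in Herb vs. Saline).

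A few members were listed near 0 in single libraries while close to their group elsewhere. Il11ra1, the ligand-binding chain for IL-11, was 5.18 to 5.79 FPKM in Saline, 6.34 to 8.45 in OVA and 9.09, 6.93 and 9.46 in Herb, but 0.0406 in Herb replicate 2. In that library the unnamed row directly before it was at 7.06 FPKM, against 0.0689 to 1.22 in the other 9. Il11ra1 also has a near-identical copy, Il11ra2, between which reads can be split, so both are uncertain. Il10rb, the second chain of the IL-10 receptor, was 5.38 to 7.78 FPKM in Saline, 6.24, 0 and 2.97 in OVA and 2.07, 7.71, 8.54 and 9.70 in Herb, and the unnamed row before it was highest in OVA replicate 2, at 5.28 FPKM. Il2rg, the common gamma chain, stood at 0 to 1.49 FPKM beside an unnamed row of 3.51 to 5.96 FPKM. Il1bos overlaps Il1b on the opposite strand, and the sources name a stranded library kit in one place and a kit without that word in another, so their reads may not be told apart. None of these members was called after scaling.

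Herb vs. OVA addresses which transcripts differ under the extract. In the limma test 0 of 26 members were called, beside 0.819% of all gene sums. At an unadjusted p under 0.05 there were 7 members, 4 higher (Il6ra, Il6st, Il17rd and Il1f9) and 3 lower (Il3ra, Il17rc and Il17re), beside 27.1% of all gene sums. The groups did not overlap in 6 members, 4 of them higher in Herb, beside 22.6% of all gene sums. The second fit for low members called none of 52, beside 0.335% of its gene sums. Il6ra came nearest: Herb libraries were at 12.01, 11.6, 9.47 and 9.09 FPKM, all above the 5.05 to 6.47 of OVA and around the 8.20 to 10.4 of Saline. The log2 difference was 0.75 ± 0.14 (adjusted p = 0.0504). It was called as deposited (1.31, adjusted p = 0.00716), with a common sum of protein-coding rows (0.60, adjusted p = 0.0493), under quantile normalization (0.77, adjusted p = 0.0366) and without OVA replicate 2 (0.67, adjusted p = 0.0422), and it was positive in every setting. The log2 difference was 0.31 ± 0.12 (adjusted p = 0.148) for Il6st, under the median of 0.47 of all gene sums between 20 and 50 FPKM. For Il1f9 it was 0.77 ± 0.24 (adjusted p = 0.0933). The difference was -0.51 ± 0.17 (adjusted p = 0.104) for Il17rc and -0.61 ± 0.19 (adjusted p = 0.101) for Il17re, with all Herb libraries under all OVA libraries for both, although as deposited Il17rc was at 0.06 and Il17re at -0.11. The difference in Il3ra was -0.47 ± 0.20 (adjusted p = 0.163) and turned to 0.03 as deposited. As deposited, 10 of 27 members were called, all higher in Herb, beside 44.5% of all gene sums. With a common sum of protein-coding rows Il6ra was called higher and Il16 lower, and under quantile normalization Il6ra alone was called. Il16 entered the fit with the common sum only through the OVA libraries, where it was high. Its call there is given for completeness only.

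Herb vs. Saline compares mice given both ovalbumin and the extract with the controls. Of 26 members 5 were called, beside 16.1% of all gene sums, with 4 higher (11.0% of all gene sums) and 1 lower (5.03%). All 5 were receptors that were also called in OVA vs. Saline, a comparison with the same Saline libraries. Il10ra was higher by 1.20 ± 0.18 (adjusted p = 0.0120), Il3ra by 0.97 ± 0.20 (0.0189), Il17rb by 0.60 ± 0.16 (0.0365) and Il18rap by 0.52 ± 0.13 (0.0349). Il6st was lower, at -0.63 ± 0.12 (adjusted p = 0.0179). Il10ra alone held its call in all 18 settings, with adjusted p from 0.00736 to 0.0489. The calls were fragile for the others: Il3ra lost its call without Saline replicate 2 (0.78, adjusted p = 0.0738) or Herb replicate 3 (0.95, adjusted p = 0.0527), Il17rb whichever of the 7 Saline and Herb libraries was left out (0.56 to 0.66, adjusted p = 0.0539 to 0.125), and Il18rap without any of 6 of them (0.43 to 0.57, adjusted p = 0.0538 to 0.126). Il6st lost it without any 1 of the Saline libraries (-0.56 to -0.70, adjusted p = 0.0543 to 0.0594) and under quantile normalization (-0.20, adjusted p = 0.343). Counting all settings, the call was lost in 10 of 16 for Il17rb and in 10 of 18 for Il18rap, which stood at 0.19 (adjusted p = 0.359) as deposited and 0.34 (adjusted p = 0.106) under quantile normalization. The groups did not overlap in 11 members, 9 of them higher in Herb, beside 39.7% of all gene sums. As deposited, 5 of 27 members were called (Il10ra and Il3ra higher, Il1a, Il18 and Il6st lower), beside 26.1% of all gene sums. The second fit added the epithelial cytokine Il17c, at 0.176, 0 and 0.497 FPKM in Saline, 0.284, 0.856 and 0.982 in OVA and 1.04, 1.07, 1.22 and 1.13 in Herb (2.25 ± 0.58, adjusted p = 0.0371). It also added Il18, called lower, which entered this fit only through the Saline libraries. It called 7 of 52 members, beside 13.5% of its gene sums.

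**Figure D4:**
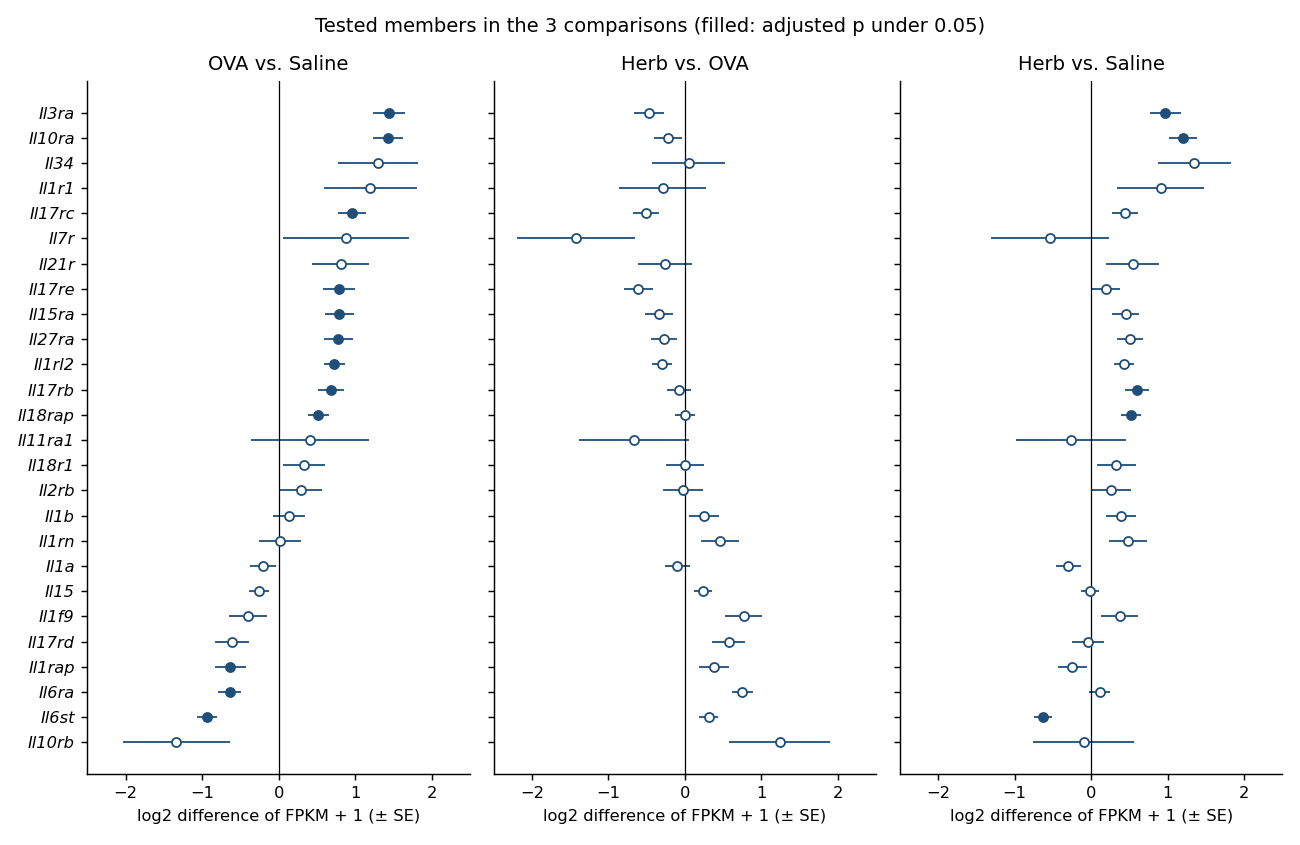
Log2 differences of scaled FPKM + 1 (± SE of the limma fit) of the 26 tested members in the 3 comparisons, filled where the adjusted p was under 0.05. There are 12 filled points in OVA vs. Saline, none in Herb vs. OVA and 5 in Herb vs. Saline, and Il6ra moves from -0.64 in OVA vs. Saline to 0.11 in Herb vs. Saline.

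Lists of genes that work with these receptors were counted in the same fit, in which 25.0% of all gene sums were higher and 16.9% lower in OVA vs. Saline. Of 10 tested chains and ligands that pair with interleukins under other names, 4 were higher in OVA vs. Saline (Csf2ra 1.89, Crlf2 1.37, Clcf1 1.27 and Csf2rb2 1.06), with a list median of 0.53. Csf2rb, the signalling chain of Il3ra and Il5ra, and Csf2rb2 are near-identical copies. Csf2rb was not called (0.03) and spread from 1.14 to 9.21 FPKM in OVA. Of 8 IL-17 signalling genes, 5 were higher: the RNase gene Zc3h12a (1.55 ± 0.20, adjusted p = 0.00112), Nfkbiz (1.25), Traf5 (1.19), Cebpb (1.02) and the adaptor gene Traf3ip2 (0.64), with a list median of 0.83. Traf2 (0.51) was not called, nor were Cebpd (-0.29) and Lcn2 (-0.55), which leaned lower. Of 13 genes of IL-1 and IL-18 release and signalling, 3 were higher, the inflammasome sensor gene Nlrp3 (0.71), Irak2 (0.87) and Irak4 (0.46), and the median was 0.09. Of 9 tested Janus kinase and STAT genes, Stat5a (0.81) and Tyk2 (0.62) were higher and Jak1 (-0.69) was lower, with a median of 0.04. Of 7 tested inhibitors of cytokine receptor signalling, Socs3 (1.16 ± 0.21, adjusted p = 0.00350) and Ptpn6 (0.51) were higher, with a median of 0.51. None of these lists had a call in Herb vs. OVA after scaling. As deposited, the only list member called higher in OVA vs. Saline was 1 IL-17 signalling gene, and 3 to 7 members per list were called lower except for 2 in the IL-17 list.

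Markers of the cells that carry these receptors also differed between groups, and their part in the receptor differences was not tested. Summed over the list, eosinophil markers (7 genes, 4 tested, 1 higher and 3 lower in OVA) were at 17.6 to 35.0 FPKM in Saline, 7.85 to 14.8 in OVA and 10.5 to 13.5 in Herb. The 3 lower genes were Ear1 (-1.99), Ear2 (-1.3) and Siglecf (-0.6), and Ear1 and Ear2 made up most of the Saline sum. The granule gene Prg2, called higher, stood at 2.27, 2.41 and 1.40 FPKM in OVA and at 0 in each Saline library. Epx was under 0.13 in all libraries. In lavage fluid the study counted more eosinophils, neutrophils and macrophages in OVA than in Saline mice. The marker sums of these cell types are therefore not read as cell numbers. Macrophage markers (8 genes, 7 tested, C1qa higher and Lyz2 lower) were at 871 to 993, 175 to 523 and 473 to 867 FPKM, a sum that is mostly Lyz2. In Herb vs. Saline 3 of the 7 tested macrophage markers were higher and none lower, beside 11.0% of all gene sums higher. They were C1qa (1.80 ± 0.32, adjusted p = 0.0143), C1qc (1.25 ± 0.26, adjusted p = 0.0195) and Adgre1 (1.02 ± 0.18, adjusted p = 0.0138). Of those not called, C1qb (1.53) and Mrc1 (0.68) leaned higher and Lyz2 (-0.6) and Cd68 (-0.52) leaned lower. Neutrophil markers (6 tested, none called) were at 30.1 to 355, 17.6 to 60.9 and 46.1 to 120 FPKM. The highest Saline sum was mostly S100a9, at 0, 302 and 95.2 FPKM in Saline. S100a9 was at 0, 0 and 1.52 FPKM in OVA and 0, 54.6, 0 and 0 in Herb. T cell markers (4 of 7 tested, none called) were at 9.01 to 15.8, 7.93 to 11.2 and 8.98 to 18.0 FPKM, and NK cell markers (3 of 5 tested, Gzma lower) at 10.1 to 12.1, 2.88 to 7.05 and 7.82 to 9.05 FPKM. B cell markers (5 tested, Pax5 higher) were at 10.2 to 18.3, 8.46 to 13.4 and 5.93 to 22.8 FPKM. Mast cell and basophil markers were too low to test, at 0.407 to 1.46 FPKM over all libraries, with Mcpt8 at 0 in all Saline libraries and Cpa3 at 0.365 to 1.04 FPKM. Markers of lung tissue were measured as well. Endothelial markers (6 tested, 3 lower) were at 248 to 301, 104 to 170 and 147 to 255 FPKM, epithelial markers (7 tested, 1 higher and 3 lower) at 11900 to 18900, 5120 to 8720 and 9480 to 12100 FPKM, and fibroblast markers (5 tested, 2 higher and 3 lower) at 93.4 to 134, 97.8 to 128 and 141 to 216 FPKM. The high levels of the surfactant gene Sftpc and the club cell gene Scgb1a1 mark the samples as lung.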

How the data were processed

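Lung RNA of 10 mice was sequenced after mRNA selection. The submitters' processing notes name cutadapt 1.10, HISAT2, StringTie 1.3.3b and the mm10 build, and the methods name ballgown for the expression levels. The authors deposited 1 table of FPKM per transcript (66548 rows, 34943 with a symbol). The study's own tests, for which the notes name edgeR 3.16.5, are not used here. Because the values are FPKM, limma 3.58.1 (R 4.3.3; lmFit, eBayes with trend) was applied to log2(FPKM + 1) of gene sums, with each library scaled to a common 75th percentile. Gene sums with a mean of at least 1 FPKM (11349) were tested in 1 fit over 3 group means, with Benjamini-Hochberg adjustment. The p-values measure the spread between mice.

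The members and gene lists were chosen with earlier results of these data known. Members called in any comparison, the 5 ligands and 5 receptors of highest mean, and Il1b, Il1rn, Il6, Il10, Il17a, Il25, Il9 and Il5ra are described by rule. Other named members, and the printed promoters, were chosen after their values were seen, and Il1f5 was placed with the antagonists. Lists of 5 signalling groups and 10 cell types were counted without a set test. The result of 1 list gene is not reported here. Depth was estimated from the steps of FPKM times transcript length at values under 0.1. The fit was first tested on simulated data. Alternatives were other scalings, pseudocount, filters, the highest row, a replicate block, the screen of the study and leaving out each library. Replicate numbers did not pair the libraries. Python 3.11.15, numpy 2.4.6, pandas 2.3.3 and matplotlib 3.10.9 were used for tables and plots.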

Additional observations from a re-analysis of the deposited data

Results flagged for a closer look

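Il7r, the IL-7 receptor chain of lymphocytes, was listed at 5.934 FPKM in Herb replicate 3 and at 0 in the other 3 Herb libraries, which set this library apart from its group. Chance alone sets a library apart in this way in about 1 in 20 groups, a rate for continuous values, whereas 3 of these 4 values were tied at 0. Saline was at 0, 2.67 and 2.58 FPKM and OVA at 1.76, 3.83 and 5.09. The unnamed row directly before Il7r was at 3.08 FPKM in Herb replicate 3 and at 3.43 to 6.20 in the other Herb libraries. No comparison of Il7r was called (limma, adjusted p = 0.417, 0.267 and 0.662 in the order OVA vs. Saline, Herb vs. OVA and Herb vs. Saline).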

How the results depend on the processing

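Groups of 3 and 4 mice, values listed at 0 and unnamed rows beside most members limit these results, low members above all. The screen of the study (a log fold change of at least 1 and unadjusted p under 0.05) gives no base for its logarithm. It was read as log2 and applied to log2(FPKM + 1), which understates folds of low genes. The number of members called in OVA vs. Saline (12) was 9 to 13 when 1 library was left out, 20 in the fit with both lower limits (mean 0.1 FPKM, pseudocount 0.1), and 3 under the screen of the study (all gene sums 3590 to 4610, and 1955 under the screen). In Herb vs. OVA (0 members, 93 gene sums) it was 10 members and 4982 gene sums as deposited, 2 and 640 with a common sum of protein-coding rows, and 1 and 157 under quantile normalization. Gene sums called there were 53 with pseudocount 0.1, 60 with no filter, 54 with both lower limits and 392 under the screen. Leaving out 1 library gave 0 to 1 members and 29 to 918 gene sums, both maxima without OVA replicate 2. In Herb vs. Saline (5 members, 1823 gene sums) it was 3 and 841 under quantile normalization, 2 and 604 under the screen, and 2921 gene sums as deposited. Leaving out 1 library gave 1 to 7 members and 122 to 2167 gene sums, both minima without Saline replicate 2. Directions reversed in OVA vs. Saline as deposited for Il15ra (-0.07), Il18rap (-0.28), Il1rl2 (-0.12), Il1b (-0.78) and Il1rn (-0.63). They also reversed for Il15ra with its highest row (-0.07), for Il1a with the common sum (0.10) and for Il1rn under quantile normalization (-0.15), with pseudocount 0.1 under both filters (-0.05). In Herb vs. OVA they reversed as deposited for Il10ra (0.37), Il1a (0.40) and Il3ra (0.03), and for Il34 with the common sum (-0.09) and quantile normalization (-0.01). Leaving out 1 library, the range there was -0.51 to 0.46 for Il34 and -0.20 to 0.03 for Il1a, and in OVA vs. Saline it was -0.20 to 0.34 for Il1rn. The causes were not tested.

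Libraries with the same replicate number did not deviate together (correlations of -0.004 to 0.086, none above 0.1), so the numbers do not pair them. With the replicate number as a block, 14 members were called in OVA vs. Saline, 0 in Herb vs. OVA (5 gene sums, and Il1a at 0.03) and 2 in Herb vs. Saline (610 gene sums, with Il6st at adjusted p = 0.0696).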
